A study of Mus musculus with 6 samples.

Results

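The oligodendrocyte lineage was followed through 10 genes on mouse neurosphere arrays, 7 of precursor cells (Olig1, Olig2, Sox10, Pdgfra, Cspg4, Nkx2-2 and Gpr17) and 3 of myelin (Mbp, Cnp and Mog). The genes were chosen by name, and each was read from the transcript cluster annotated with its symbol alone. A transcript cluster is a group of probes that covers 1 transcribed region. All 10 genes had 1 such cluster, so the 10 were measured among 19937 genes in all. Neurospheres are floating colonies grown from single cells, here from the minced hippocampus of adult male C57BL/6J mice aged 8 to 12 weeks, in medium with EGF and bFGF. The 3 N arrays came from small primary neurospheres grown with 10 µM norepinephrine and the 3 K arrays from small ones grown with 15 mM potassium chloride, all collected on day 14. The comparison of N with K answers how the 2 treatments differ, since no array of untreated neurospheres was analysed here. The labels call the samples biological replicates without naming the animals or cultures behind each, so p-values measure the spread between these samples.

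Oligodendrocytes wrap axons in myelin, and they arise from precursor cells that stay in the adult brain. Precursors carry the growth factor receptor PDGFRA and the proteoglycan NG2, and the transcription factors OLIG1, OLIG2, SOX10 and NKX2-2 set and hold their identity. When the cells leave the cell cycle they pass through a stage marked by GPR17 and then switch on myelin genes such as Mbp, Cnp and Mog. In neurosphere medium growth factors keep cells dividing, and Olig2 is also found in dividing precursors of mixed fate.

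None of the 10 genes passed the test of N against K, set at an adjusted p below 0.05 in limma (lmFit and eBayes, Benjamini-Hochberg over all genes). Over all genes tested, 0.120% were called higher with N and 0.0351% higher with K at that threshold. At an unadjusted P under 0.05, 0 of the 10 were called in limma, against 8.54% of all genes, and 1, Olig1, in a plain linear model with no moderation, which put 7.03% of all genes under that P. Values are given as log2 RMA values (RMA corrects the background and normalizes between arrays), and a log2FC is the mean of the N arrays minus that of the K arrays. The largest log2FC in size was -0.31, that of Cspg4, and the 95% intervals of all 10 lay between -0.70 and 0.66. A change of 1 on the log2 scale, the threshold on size for the study's positive set, was outside every interval. No member met the rule of that set (a log2FC over 1 in size and P under 0.05), which 0.492% of genes did. The negative set (a log2FC under 0.1 in size and P over 0.1) took in 41.7% of genes and 2 of the 10, Gpr17 and Cnp. With 3 arrays per group an exact permutation test of 1 gene cannot give a p under 0.1. In RNA from whole neurospheres, fewer cells of a type and less RNA per cell cannot be told apart.

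**Figure D1:**
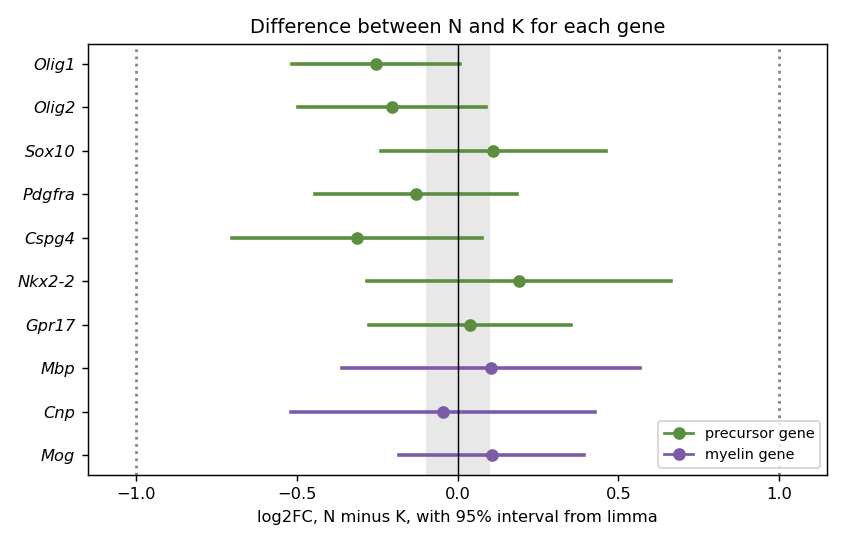
Points mark the log2FC (N minus K, horizontal axis) of the 10 genes and lines the 95% intervals from limma, with the range of the negative set shaded and the thresholds of the positive set dotted. All intervals cross 0, that of Olig1 by the least (from -0.52 to 0.01), and none reaches a dotted line.

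No 2 arrays held identical values. Across clusters, each array correlated with the others of its group at 0.948 (K replicate 3) to 0.965 on average. K replicate 2 correlated more with the N arrays (0.969) than with the other K arrays (0.954), as did K replicate 1 by a smaller margin (0.955 against 0.954). The means of 1015 olfactory receptor genes, which neural cells are not known for using, gave a guide to dim clusters, with a median of 4.56 and a 95th percentile of 6.27. Of the 10 genes 9 had a mean above that percentile, and Pdgfra, with 6.17 over the 6 arrays, did not. A difference in so dim a cluster rests on little signal. Of the markers of neural stem and precursor cells 6 of 7 lay above the percentile, Nes, Sox2 and Vim among them. The array means of that list ran from 9.32 to 9.49 with N and from 9.28 to 9.51 with K. Its genes differed in direction, with 4 positive log2FC, Vim (0.44) and Prom1 (0.40) among them, and 3 negative, Nes (-0.53) among them. Vim, Prom1 and Nes had an unadjusted P under 0.05 in limma, as did 8.54% of all genes, and none of the 7 passed after adjustment.

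**Figure D2:**
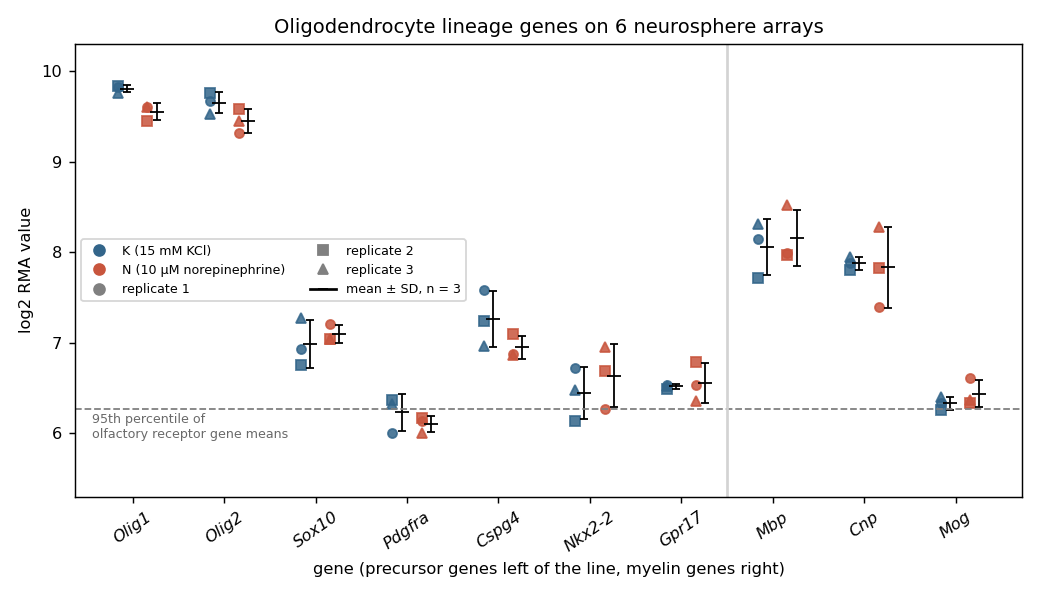
Log2 RMA values (vertical axis) of the 10 genes on each array, K in blue and N in red, with marker shapes for the replicate number and bars for mean ± SD (n = 3 arrays per group). Only the Olig1 groups stand clear of each other, and Pdgfra lies around the dashed line at 6.27, the 95th percentile of olfactory receptor genes. Heights of different genes depend on their probes and cannot be compared.

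Olig1 and Olig2 encode basic helix-loop-helix transcription factors. Both genes lie on chromosome 16 of GRCm38, Olig2 from 91225550 to 91228677 and Olig1 from 91269769 to 91271939, with 41091 bases between them. Olig1 read 9.61, 9.45 and 9.61 on N replicates 1 to 3 and 9.82, 9.83 and 9.76 on K replicates 1 to 3. All 3 N arrays lay below all 3 K arrays, the only such separation among the 10 genes in either direction. Over all genes, 7.55% had the N arrays below the K arrays and 5.78% had them above. The log2FC of Olig1 was -0.25 (standard error 0.11 over 3 N and 3 K arrays, limma adjusted p = 0.598), a level with K 1.19-fold that with N. Its arrays spread little within groups, since only 4.76% of genes had a smaller residual SD.

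Olig2 read 9.32, 9.59 and 9.44 on the N arrays and 9.67, 9.75 and 9.53 on the K arrays. N replicate 2 lay above K replicate 3, so the groups overlapped. The log2FC was -0.20 (standard error 0.13, adjusted p = 0.731 from limma). For both genes the highest array was K replicate 2 and every N array lay below K replicates 1 and 2. With quantile normalization both groups stood apart for Olig2 too, as they did for 13.8% of all genes. The unadjusted P values of Olig1 and Olig2 from limma were then 0.0132 and 0.0373, in a fit that put 8.74% of all genes under 0.05, and neither passed after adjustment (adjusted p = 0.401 for Olig1 and 0.539 for Olig2).

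Start sites of 4 of the genes are shown so that the members with lower and with higher means on the N arrays can be read side by side. Pdgfra and Olig2 had lower N means, Nkx2-2 and the myelin gene Mog higher ones, and none of the 4 passed the test. Each sequence runs 5′ to 3′ on the gene's strand over 250 bases before and 50 after an annotated start, from RefSeq on GRCm38.p6. For Pdgfra (gene from 75151322 to 75198206) and Nkx2-2 (147176485 to 147195434) the window lies inside the gene's span, not at its outer end. The motif search covered 6 of the 10 genes (Olig2, Pdgfra, Cspg4, Nkx2-2, Cnp and Mog). Olig1, Sox10, Gpr17 and Mbp were not searched. Capitals mark 3 motifs searched on both strands: an E-box of the kind bound by OLIG proteins (CAGCTG or CATCTG), the core of the cAMP response element (TGACG) and a TATA box (TATAAA).
Olig2, chr16:91225300-91225599, plus strand: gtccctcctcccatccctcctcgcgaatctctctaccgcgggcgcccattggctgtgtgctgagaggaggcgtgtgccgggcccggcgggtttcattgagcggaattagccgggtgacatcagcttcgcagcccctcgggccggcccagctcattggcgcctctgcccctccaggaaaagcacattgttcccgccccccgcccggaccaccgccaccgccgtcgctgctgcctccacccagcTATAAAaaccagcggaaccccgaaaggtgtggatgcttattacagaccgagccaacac
Pdgfra, chr5:75152001-75152300, plus strand: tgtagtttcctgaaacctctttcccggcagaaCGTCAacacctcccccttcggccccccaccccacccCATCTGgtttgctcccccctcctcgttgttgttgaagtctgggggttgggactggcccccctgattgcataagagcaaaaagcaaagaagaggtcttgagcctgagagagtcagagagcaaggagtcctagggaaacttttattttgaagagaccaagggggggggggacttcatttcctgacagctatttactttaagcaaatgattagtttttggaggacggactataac
Nkx2-2, chr2:147186353-147186652, minus strand: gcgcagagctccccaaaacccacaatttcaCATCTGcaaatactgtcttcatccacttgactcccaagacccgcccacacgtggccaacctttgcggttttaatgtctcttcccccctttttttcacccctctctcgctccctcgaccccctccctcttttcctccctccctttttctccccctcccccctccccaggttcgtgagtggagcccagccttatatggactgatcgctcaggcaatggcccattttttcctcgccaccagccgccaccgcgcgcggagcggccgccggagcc
Mog, chr17:37023349-37023648, minus strand: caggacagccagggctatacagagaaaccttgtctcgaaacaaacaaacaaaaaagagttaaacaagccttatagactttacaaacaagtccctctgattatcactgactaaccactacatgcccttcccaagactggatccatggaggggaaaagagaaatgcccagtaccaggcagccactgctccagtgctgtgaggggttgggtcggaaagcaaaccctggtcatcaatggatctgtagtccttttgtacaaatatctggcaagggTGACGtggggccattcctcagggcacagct

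The E-box letters stood in the windows of Pdgfra and Nkx2-2 among the 6 searched, and in 30.6% of all promoters in the table. The response element core stood in those of Pdgfra and Mog and in 20.8% of all. The TATA box letters stood in that of Olig2, beginning at -8 from the annotated start, and anywhere in the window in 13.6% of all. The windows of Cspg4 and Cnp held none of these letters. Pdgfra and Nkx2-2, which share the E-box letters, had log2FC of -0.13 and 0.19. A match describes letters in a window and says nothing about a bound factor.

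Cspg4 encodes the proteoglycan NG2 on the precursor surface. It read 6.88, 7.10 and 6.87 with N and 7.58, 7.24 and 6.96 with K. The N arrays lay close together and the K arrays spread over 0.62, with K replicate 3 inside the range of N. Cspg4 had the largest log2FC of the 10 in size, -0.31 (standard error 0.17, adjusted p = 0.675 from limma), and its interval ran from -0.70 to 0.08. With 1 array left out it ran from -0.15 without K replicate 1, the highest array, to -0.46 without K replicate 3. The latter had an unadjusted P of 0.0195 and an adjusted p of 0.551 from limma, in a fit with 7.16% of all genes at P under 0.05. Pdgfra encodes the receptor for PDGF-A, which drives precursor division. It read 6.14, 6.16 and 6.01 with N and 6.00, 6.37 and 6.33 with K. K replicate 1 was the lowest of the 6 arrays and the other 2 K arrays were the highest, so the groups overlapped. The log2FC was -0.13 (standard error 0.14, adjusted p = 0.849 from limma), and it was -0.25 without K replicate 1 and -0.06 without K replicate 2.

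Cspg4 is also a gene of pericytes and Pdgfra one of fibroblasts, so markers of both cell types are set beside them. Of 5 pericyte markers 1 had a mean above the 95th percentile of olfactory receptor genes, and the array means of the list ran from 5.99 to 6.05 with N and from 5.85 to 6.04 with K. Of the 5, Pdgfrb and Abcc9 had negative log2FC (-0.13 and -0.01) and Kcnj8, Anpep and Rgs5 positive ones (0.37, 0.09 and 0.07). Kcnj8 had an unadjusted P of 0.0288 in limma, and none passed after adjustment. Of 5 markers of fibroblasts and meninges 3 lay above the percentile, and the list ran from 6.12 to 6.21 with N and from 6.04 to 6.14 with K. The part of either cell type in the values of Cspg4 and Pdgfra was not tested.

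Sox10, Nkx2-2 and Gpr17 had higher means with N, none of which passed. Sox10, a transcription factor gene used throughout the lineage, read 7.21, 7.04 and 7.04 with N and 6.93, 6.75 and 7.27 with K. The highest and the lowest of the 6 arrays were both K arrays, replicates 3 and 2. Its log2FC was 0.11 (standard error 0.15), and without K replicate 2 it was -0.01. Nkx2-2, a homeobox gene of precursors about to differentiate, read 6.26, 6.69 and 6.95 with N and 6.72, 6.14 and 6.48 with K. It had the largest SD over the 6 arrays of the 7 precursor genes (0.30), and the groups overlapped over most of their ranges. Its log2FC was 0.19 (standard error 0.21, adjusted p = 0.854 from limma), and it depended on single arrays, with 0.38 without N replicate 1, 0.33 without K replicate 1, 0.03 without N replicate 3 and 0.04 without K replicate 2. Gpr17, a receptor gene of the stage between precursor and myelinating cell, read 6.53, 6.78 and 6.35 with N and 6.54, 6.49 and 6.53 with K. The K arrays lay within 0.04 of each other while the N arrays spread over 0.43. The highest and the lowest arrays were N replicates 2 and 3, and the log2FC was 0.04 (standard error 0.14).

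None of the myelin genes passed the test, and much of their spread lay within the groups. Mbp encodes myelin basic protein, which holds the layers of the sheath together. It read 7.99, 7.97 and 8.52 with N and 8.14, 7.71 and 8.31 with K. In both groups replicate 3 was the highest, and the groups overlapped over most of their ranges. The log2FC was 0.10 (standard error 0.20, adjusted p = 0.925 from limma), and it was -0.08 without N replicate 3 and -0.07 without K replicate 2.

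Cnp encodes an enzyme of the myelin cytoplasm that appears early in differentiation. It read 7.39, 7.82 and 8.28 with N and 7.88, 7.81 and 7.95 with K. The N arrays spanned 0.89, the widest range within a group among the 10 genes, and enclosed all 3 K arrays, which spanned 0.14. Its log2FC was -0.05 (standard error 0.21), and without N replicate 1, the lowest array, it was 0.17. Residual SDs were smaller in 86.8% of all genes than that of Cnp and in 85.8% than that of Mbp, so both varied more between replicates than most genes. Mog encodes a glycoprotein on the outermost face of mature myelin. It read 6.61, 6.34 and 6.36 with N and 6.33, 6.26 and 6.40 with K. N replicate 1 stood above the rest, and the mean of Mog over the 6 arrays, 6.39, was little above the 95th percentile of olfactory receptor genes, 6.27. The log2FC was 0.11 (standard error 0.13, adjusted p = 0.868 from limma), and it was 0.02 without N replicate 1 and 0.07 without K replicate 2.

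Mbp and Cnp are also genes of Schwann cells, the myelinating cells of peripheral nerve, as is Sox10. Of 6 listed Schwann cell markers 4 were measured, and Pmp22 and Egr2, which other cells use too, lay above the 95th percentile of olfactory receptor genes. The list ran from 7.02 to 7.11 with N and from 6.92 to 6.96 with K, and 0 of the 4 passed in limma at an adjusted p or an unadjusted P under 0.05. The part of such cells in the member values was not tested.

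Precursor and myelin genes were then set apart. The median log2FC was -0.13 over the 7 precursor genes and 0.10 over the 3 myelin genes, against -0.03 over all genes tested. Neither class moved as a block. Of the precursor genes 4 had a negative log2FC (Olig1, Olig2, Pdgfra and Cspg4) and 3 a positive one, and of the myelin genes 1 was negative and 2 positive. With each gene centred on its mean over the arrays, the precursor mean was -0.10, 0.03 and -0.05 on the N arrays and 0.09, -0.01 and 0.03 on the K arrays. The myelin mean was -0.12, -0.07 and 0.27 with N and 0.00, -0.19 and 0.11 with K. The precursor mean minus the myelin mean was 0.02, 0.10 and -0.32 with N and 0.09, 0.18 and -0.07 with K. These ranges overlapped, and N replicate 3, the highest array for Cnp, Mbp and the precursor gene Nkx2-2, stood lowest. The highest and lowest arrays of the 10 genes fell on both groups, with K replicate 2 the highest for 3 genes and the lowest for 4 and N replicate 3 the highest for 3 and the lowest for 2. K replicate 2 alone was highest for Olig1, Olig2 and Pdgfra and lowest for Sox10, Nkx2-2, Mbp and Mog. Without that array the median of the precursor genes was -0.06 and that of the myelin genes -0.07, beside -0.06 over all genes. The myelin median was -0.08 without N replicate 3, beside -0.02 over all genes. Without K replicate 2, 7 of the 10 also fulfilled the negative set rule, against 2 of 10 with all arrays, and that rule then took in 31.6% of all genes.

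**Figure D3:**
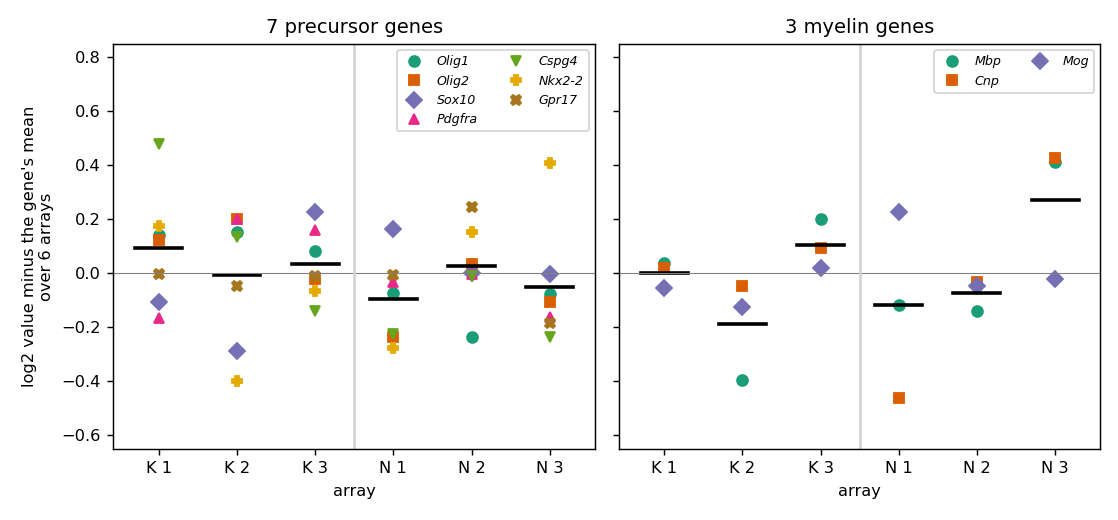
Log2 values minus each gene's mean over the 6 arrays (vertical axis) for the 7 precursor genes (left) and the 3 myelin genes (right) on each array, with black bars for the mean of the class. On N replicate 3 Cnp, Mbp and the precursor gene Nkx2-2 stand near the top, Mog lies at -0.02 and Cspg4 and Gpr17 lie low. On K replicate 2 Mbp and Nkx2-2 lie lowest.

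Other genes of the lineage were read from 5 lists, with 55 genes measured. None of the 55 passed in limma at an adjusted p under 0.05. At an unadjusted P under 0.05, 4 were higher and 6 lower with N, or 18.2% of the 55 against 8.54% of all genes. Of the 55, 38 had a negative log2FC, beside 11372 of all 19937 genes. The median was -0.07, beside -0.03 over all genes. Counts of signs in the single lists below stand beside the same all-gene count. The lists were chosen with earlier results of these arrays known, so these shares are a description.

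Genes of the precursor surface and its matrix gave 4 of these 10 unadjusted calls. Of 11 measured, 9 had a negative log2FC, with a median of -0.17, and 3 were lower and 1 higher with N at an unadjusted P under 0.05. Tnr, which encodes the matrix protein tenascin-R, read 6.66, 7.15 and 6.94 with N and 7.87, 7.89 and 7.92 with K. The groups were far apart, and Tnr came nearest of all lineage genes to passing, with a log2FC of -0.98 (standard error 0.15, adjusted p = 0.0600 from limma). Bcan, which encodes the proteoglycan brevican, read 8.36, 8.21 and 8.31 with N and 8.70, 8.81 and 9.07 with K (log2FC -0.56, adjusted p = 0.263 from limma). Cacng4, which encodes an auxiliary subunit of AMPA receptors, read 7.72, 8.15 and 7.60 with N and 8.80, 8.44 and 8.27 with K (log2FC -0.68, adjusted p = 0.332 from limma). The 3 N arrays lay below the 3 K arrays for each of these genes, as they did for 7.55% of all genes. Pcdh15, a protocadherin gene, read from the brighter of its 2 clusters, went the other way, with 7.003, 6.75 and 6.82 on the N arrays and 6.13, 6.28 and 6.20 on the K arrays (log2FC 0.65, adjusted p = 0.133 from limma). Vcan and Ptprz1, a matrix proteoglycan and a receptor phosphatase of precursors, had log2FC of -0.29 and 0.03.

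Of 9 further transcription regulators 8 had a negative log2FC, with a median of -0.11. Sox6, which holds precursors undifferentiated, had -0.30 (standard error 0.12, adjusted p = 0.551 from limma), Sox8 -0.27 and Tcf7l2, a gene of newly formed oligodendrocytes, -0.25. The N arrays lay below the K arrays for 3 of the 9, Sox6 and Tcf7l2 among them, beside 7.55% of all genes. Myrf, the regulator that switches on myelin genes, had -0.09. Among 8 genes of differentiating oligodendrocytes 4 were positive and 4 negative, with a median of -0.01 and none at an unadjusted P under 0.05 in limma. The largest in size was Rras2 with 0.68, whose arrays spread widely (standard error 0.42), and Tppp and Enpp6 had -0.37 and 0.18. Of the 8, 5 lay above the 95th percentile of olfactory receptor genes, and Rras2 and Enpp6, with means of 5.34 and 5.18, did not.

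The other myelin genes had no common direction. Of 16 measured, 5 were positive and 11 negative, the median was -0.04, and 7 lay above the 95th percentile of olfactory receptor genes. Of these 16, 9 met the rule of the negative set, beside 41.7% of all genes. Trf, which encodes the iron carrier transferrin, was higher with N (log2FC 0.49, standard error 0.13, adjusted p = 0.314 from limma) and the connexin gene Gjc3 lower (-0.73, standard error 0.27, adjusted p = 0.494 from limma), and neither passed. Gjc3 overlapped between groups, since K replicate 1 read 6.70, below the 6.74 of N replicate 3. Mag, of a glycoprotein facing the axon, and Mobp, of a compact myelin protein, had -0.18 and -0.13. Among 11 signals and inhibitors 5 were positive and 6 negative, with a median of -0.06. Gpr37 (0.53) and Id2 (0.40), whose products restrain differentiation, were higher with N at an unadjusted P under 0.05 in limma and Pdgfc (-0.40) lower. Over all genes 8.54% had such a P, and none of the 11 passed after adjustment. The mean of Gpr37, 5.88, lay under the 95th percentile of olfactory receptor genes. Jag1, Hes5 and Lingo1 of the same list had -0.32, -0.14 and -0.06, and Id4 and Notch1 had 0.09 and 0.01. Pdgfa, the ligand of the Pdgfra product, had 0.15.

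**Figure D4:**
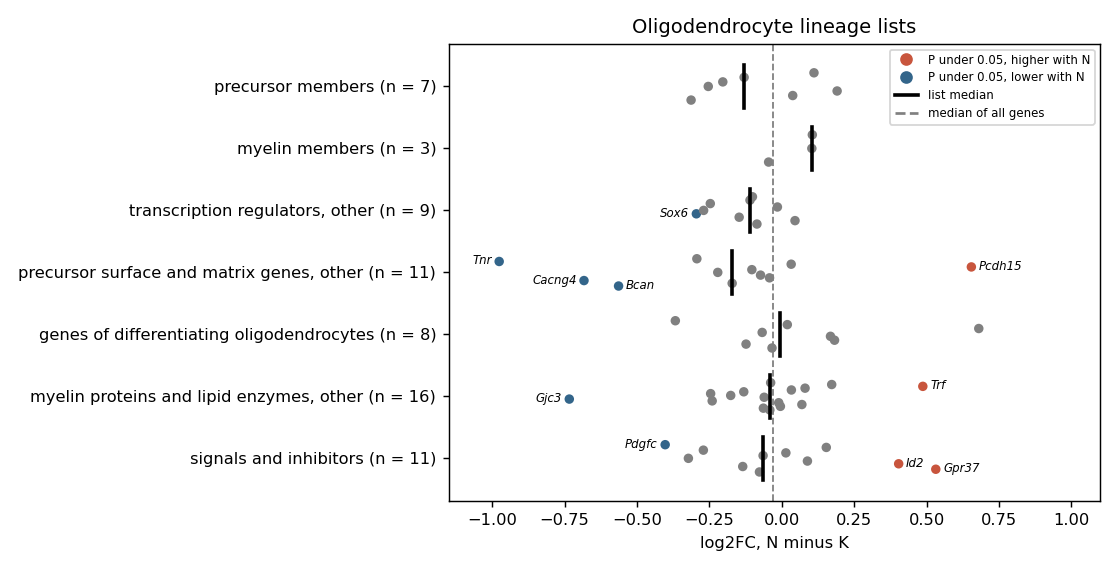
Log2FC (N minus K, horizontal axis) for the measured genes of the precursor and myelin members and of 5 other lineage lists, 1 point per gene, with black bars at list medians and a dashed line at the median of all genes, -0.03. Coloured points mark an unadjusted limma P under 0.05, of which there are 4 higher and 6 lower with N and none among the 10 members.

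Markers of other cells on the same arrays are given beside these values. Astrocyte markers ran from 8.83 to 9.27 (mean of 8 genes per array) with N and from 8.35 to 8.44 with K. Of the 8, 1 passed, Gfap (log2FC 1.66, adjusted p = 0.0358 from limma), where 0.120% of all genes were called higher with N. At an unadjusted P under 0.05 in limma, 5 of the 8 were higher with N and 0 lower, beside 8.54% of all genes. All N arrays lay above all K arrays for 6 of the 8, beside 5.78% of all genes. The log2FC was positive for 7 of the 8 markers and negative for S100b (-0.47), whose groups overlapped. Neuron and neuroblast markers ran from 6.70 to 6.73 with N and from 6.496 to 6.80 with K, a mean over genes of both directions. Of the 7, 2 had a positive log2FC, Snap25 (0.81) and Tubb3 (0.47), and 5 a negative one, Map2 (-0.32) among them. These 3 named genes had an unadjusted P under 0.05 in limma, as did 8.54% of all genes, and none of the 7 passed after adjustment. Microglial markers ran from 5.50 to 5.63 with N and from 5.58 to 5.82 with K, with 1 of 8 above the 95th percentile of olfactory receptor genes, and endothelial markers from 5.71 to 5.86 and from 5.72 to 5.88, with 0 of 6 above it. The part of the astrocyte difference in the member values was not tested.

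The genes whose arrays were most like a member's were sought for the most variable gene of each class, by the root mean square difference of centred log2 values over the 6 arrays. For Nkx2-2 these were Ccdc105 (0.06), Dynlrb2 (0.07) and Exph5 (0.09), beside an SD of 0.30 for Nkx2-2 itself. For Cnp they were Tpbpa (0.05), 2310022A10Rik (0.07) and Tmem222 (0.07), beside an SD of 0.29. Several of these clusters were dim. Tpbpa read 3.32 to 4.19, under the olfactory receptor median of 4.56. Ccdc105 (4.74 to 5.57) and Exph5 (4.26 to 5.12) lay under the 95th percentile, 6.27, on every array. Dynlrb2 and 2310022A10Rik lay on both sides of that percentile and Tmem222 above it. No other lineage gene was among the 3 nearest of either.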

How the data were processed

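RNA of 6 neurosphere samples was hybridised to mouse Gene ST arrays from Affymetrix, 1 per sample and 3 per group. The authors processed the scanned images in Partek Genomics Suite and, per the labels, RMA. The deposited log2 values were used as they stand, with no filter. The quantile step that RMA normally includes removes shifts shared by most genes. The deposited arrays still differed somewhat, with medians from 6.30 (N replicate 3) to 6.40 (K replicate 3). Their 10th percentiles ran from 3.72 (N replicate 1) to 3.88 (K replicate 1). Of 34760 clusters, 21640 carried exactly 1 symbol and gave 19937 genes, each read from its brightest cluster. N minus K was fitted with limma 3.58.1 in R 4.3.3, on 4 residual and 4.59 prior degrees of freedom, and p-values were adjusted over the 19937 genes by Benjamini-Hochberg. The fit was run on simulated data with changes larger than that of any member, so this run does not cover differences of the size seen here. Named genes are the 10 members, up to 3 genes with the smallest P of each list and those with the nearest profiles. Other list genes complete a count or were named after their values were seen (Vcan, Ptprz1, Myrf, Mag, Mobp, Pdgfa, Jag1, Hes5, Lingo1, Id4, Notch1). Members and lists were chosen with earlier results of these data known. Alternatives covered the replicate block, moderation, a filter on dim clusters, normalization, cluster choice, thresholds and each array left out. Precision is limited by 3 arrays per group.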

Additional observations from a re-analysis of the deposited data

How the results depend on the processing

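No member and none of the 55 other lineage genes passed at an adjusted p under 0.05 under any of the 15 alternatives that refit the data, and the smallest adjusted p of a member was 0.401. Of 149 member values under these alternatives 144 kept their direction, and the 5 that did not came from leaving out 1 array. With 1 array left out in turn, Sox10 ranged from -0.0054 to 0.252, Gpr17 from -0.0758 to 0.139, Mbp from -0.0762 to 0.231 (-0.0685 without K replicate 2) and Cnp from -0.271 to 0.174 (log2FC). Olig1 ranged from -0.282 to -0.201, Olig2 from -0.273 to -0.138, Cspg4 from -0.462 to -0.153, Pdgfra from -0.247 to -0.0612, Nkx2-2 from 0.034 to 0.377 and Mog from 0.0181 to 0.155, the median of the precursor genes from -0.161 to -0.0612 and that of the myelin genes from -0.0762 to 0.174. The negative set held 4 of the 10 genes with quantile normalization (44.3% of all genes) or cyclic loess normalization (45.2%), 7 with a limit of 0.2 on the log2FC (70.1%), and 2 to 7 with 1 array left out (31.6% to 43.4%). Groups stood apart for 2 genes with quantile normalization (Olig1 and Olig2), for 3 with cyclic loess normalization (also Mog), beside 13.8% of all genes in both. They stood apart for 1 to 5 with 1 array left out, beside 20.6% to 34.2% of all genes, the 5 without K replicate 3 beside 21.6%. The replicate number shared by N and K arrays is not known to pair them (correlations of deviations 0.043, 0.043 and 0.121); with the replicate block 41 genes were called against 31 without it, 0 of them members, and the log2FC of Olig1 was -0.254. Over all genes 1 was called with the ordinary linear model, 12 with either normalization above, 3 with arrays centred on the median, 0 with all transcript clusters (2174 at an unadjusted P under 0.05) and 0 to 21 with 1 array left out. Pdgfra gave no value with clusters above the median only. No depth is defined for arrays, and dim clusters such as those of Pdgfra and Mog limit how small a difference can be measured.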
